A study of Mus musculus with 5 samples.

Results

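Mitochondria keep their own ribosome, which translates the few messenger RNAs encoded by mitochondrial DNA, all of them for subunits of the respiratory chain and the ATP synthase. The ribosomal RNAs of this particle come from mitochondrial DNA, but its proteins are encoded in the nucleus, made in the cytosol and imported. The large subunit forms the peptide bond, the small subunit reads the messenger RNA, and some proteins of each have bacterial counterparts while others are found in mitochondria only. T cells enlarge their mitochondrial translation capacity when they are activated, and regulatory T cells (Tregs) are known for their reliance on mitochondrial respiration.

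The genes described here are the 77 rows, of 24084 genes in the count table, whose symbol begins with Mrpl or Mrps followed by a number. By the known structure of the mammalian particle, 50 encode proteins of the large subunit and 26 proteins of the small subunit; Mrps30 and Mrps18a are counted with the large subunit, where their proteins sit despite their names. The remaining gene, Mrps36, encodes an adaptor of the 2-oxoglutarate dehydrogenase complex and not a ribosomal protein, so the label does not hold for it. All 77 matched 1 protein-coding gene each in GENCODE M21, spread over 17 chromosomes. No antisense or pseudogene row was taken by the symbol rule. A further 6 genes for proteins of the particle carry other names (Dap3, Ptcd3, Aurkaip1, Chchd1, Gadd45gip1 and Ict1) and are described as companions.

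RNA sequencing was done on sorted Tregs of skin (2 libraries) and of skin-draining lymph node (3 libraries), all from mice 13 days old of the strain Foxp3-DTR, a line in which Foxp3-expressing cells carry the receptor for diphtheria toxin together with GFP. Both groups thus carry the same allele; neither received a treatment according to the labels, and how many animals or cells went into a library, or which markers were sorted on, is not stated in the labels. The p-values therefore reflect library-to-library spread only, part of which may be technical. Levels are CPM, gene counts relative to library size, after scaling of library sizes by the trimmed mean of M values (TMM). Sums over several genes are CPM without that scaling.

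Gene counts per library were 10787378 and 10468795 in skin and ranged from 12305644 to 14595018 in lymph node. Foxp3, the lineage factor of Tregs, was at 78.0 and 118 CPM in skin and from 89.6 to 99.8 CPM in lymph node. Other T cell genes differed: of the 10 Treg and T cell markers, Ctla4 and Ikzf2 were higher in skin and Cd5 and Lck lower (edgeR adjusted p under 0.05). Of all tested genes, 2.4% were called higher and 5.3% lower. Cd3e, a chain of the T cell receptor complex, was at 1059 and 1233 CPM in skin and from 1802 to 2291 CPM in lymph node. In both skin libraries 6 of the 10 markers lay below every lymph node library and 2 above. Of all tested genes 33.5% lay below and 16.8% above. The 10 markers summed to 0.840 of the lymph node level in skin. Markers of myeloid cells were also present in the skin libraries. Their summed level was 2084 and 2480 CPM in skin, against 15.8 to 27.3 in lymph node. Of 18 such markers 16 passed the low-count filter and were tested. In both skin libraries 15 of the 16 were higher than in any lymph node library, where 16.8% of all tested genes were. This count is partly set by the filter: 7 of the 18 had no read in lymph node and could pass it only through skin. Among the 18 markers, Cd14 and Itgam were at 0 in skin library 2. Markers of keratinocytes summed to 207 and 277 CPM in skin and 20.6 to 33.3 in lymph node, with Krt1 at 0 in every library. They did not move together: of the 9 tested, 5 lay above and 3 below every lymph node library in both skin libraries, beside 16.8% and 33.5% of all tested genes. The 7 fibroblast markers summed to at most 4.64 CPM. Markers of B cells summed to 21.9 and 69.2 CPM in skin and 82.2 to 216 in lymph node, and those of CD8 T and NK cells to 22.0 and 0 in skin and 43.6 to 70.0 in lymph node. The 4 melanocyte markers, of which Pmel alone passed the low-count filter, summed to 8.71 and 0 in skin and 22.2 to 36.8 in lymph node. The part of these cells in the results below was not tested. Reads were found for 9894 and 9192 genes in skin and for 12173 to 12540 in the lymph node libraries, which were also deeper. Among 6660 genes with a lymph node mean of at least 20 CPM, 8.80% and 16.1% lay under 1 CPM in skin libraries 1 and 2. At most 0.0601% did so in any lymph node library, but a low share there follows from choosing the genes by lymph node level. Genes truly lower in skin are counted too, and the reverse count is not given.

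Promoters of genes for mitochondrial proteins are known targets of nuclear respiratory factor 1 (NRF1), of the ETS factor GABP and of YY1. Promoter sequences were available from RefSeq (build GRCm38.p6, 250 bases before to 50 after the start) for 68 of the 77 genes. Promoters of 4 genes are shown because their levels span the patterns described below: Mrpl45 came closest to the threshold among the genes lower in skin, Mrpl10 was among those with the largest positive fold change, Mrps9 was at about the same level in both tissues, and Mrps7 had reads in skin library 1 alone of the skin libraries. Capitals mark matches to the NRF1 motif GCGCNTGCG on either strand, and all 4 sequences run in the direction of transcription.
Mrpl45 (chr11:97315466-97315765, plus strand): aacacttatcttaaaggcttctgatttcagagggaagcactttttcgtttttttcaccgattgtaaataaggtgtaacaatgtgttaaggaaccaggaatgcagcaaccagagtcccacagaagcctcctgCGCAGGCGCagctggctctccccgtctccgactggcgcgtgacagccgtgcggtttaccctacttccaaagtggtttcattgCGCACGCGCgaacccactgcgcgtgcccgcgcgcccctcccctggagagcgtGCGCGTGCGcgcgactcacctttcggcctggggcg
Mrpl10 (chr11:97041332-97041631, plus strand): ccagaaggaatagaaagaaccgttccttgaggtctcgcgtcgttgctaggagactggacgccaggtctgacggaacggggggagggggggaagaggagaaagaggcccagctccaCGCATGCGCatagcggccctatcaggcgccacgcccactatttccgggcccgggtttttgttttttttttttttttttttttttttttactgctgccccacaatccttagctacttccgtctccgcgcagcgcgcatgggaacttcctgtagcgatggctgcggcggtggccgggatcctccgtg
Mrps9 (chr1:42850983-42851282, plus strand): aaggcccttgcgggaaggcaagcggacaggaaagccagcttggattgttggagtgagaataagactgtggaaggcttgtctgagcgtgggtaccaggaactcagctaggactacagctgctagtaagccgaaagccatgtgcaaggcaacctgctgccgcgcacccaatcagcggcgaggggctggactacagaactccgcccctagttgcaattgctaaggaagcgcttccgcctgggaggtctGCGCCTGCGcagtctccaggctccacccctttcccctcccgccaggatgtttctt
Mrps7 (chr11:115603890-115604189, plus strand): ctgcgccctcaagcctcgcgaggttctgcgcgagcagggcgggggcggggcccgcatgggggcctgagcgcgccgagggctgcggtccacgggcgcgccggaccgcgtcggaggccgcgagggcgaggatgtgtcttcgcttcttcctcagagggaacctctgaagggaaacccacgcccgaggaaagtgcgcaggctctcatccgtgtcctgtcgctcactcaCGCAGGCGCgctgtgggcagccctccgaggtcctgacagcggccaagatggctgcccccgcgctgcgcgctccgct

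The Mrpl45 promoter held 3 such matches, whose first bases lay at -119, -37 and 16 from the start, and the promoters of Mrpl10, Mrps9 and Mrps7 held 1 each, at -135, -5 and -26. The 4 were picked from the genes that hold this motif, so its presence in all of them is not a result. Over the 74 promoters of these genes, 24.3% held the NRF1 motif, against 13.7% of the promoters of all tested genes and 6.31% of the 32851 promoters in the RefSeq table. The ETS motif CCGGAAG was in 33.8% of them, against 18.4% for tested genes and 8.86% for all, and the YY1 motif ATGGCGGC in 16.2%, against 4.93% and 2.24%. Both strands were searched and matches of different motifs or of 1 palindromic site may overlap. A match describes these letters and does not show binding. Genes with at least 1 of the 3 motifs (42 genes) had a median log2 fold change, skin over lymph node, of -0.48, and those with none (26 genes) of -0.54.

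Reads of most of the set were found in both tissues. All 77 genes had reads in each lymph node library, 75 had reads in skin library 1 and 72 in skin library 2. Their counts summed to 3432 and 4388 CPM in skin and to 6027, 4366 and 4679 in lymph node. The groups overlapped, since skin library 2 lay just above lymph node library 2, and the ratio of means was 0.778. Fewer cells of a type and less RNA per cell cannot be told apart in such bulk libraries. The large subunit genes summed to 2430 and 3477 CPM in skin and 4491, 3252 and 3490 in lymph node, a ratio of 0.789. The small subunit genes summed to 1001 and 911 CPM in skin and 1534, 1114 and 1189 in lymph node, a ratio of 0.748, and here the groups did not overlap. The median gene of the set stood at 33.0 and 42.7 CPM in skin and 73.7, 54.0 and 51.9 CPM in lymph node. The median of all 11437 tested genes stood at 27.5 and 21.1 CPM in skin and 27.6 to 29.6 CPM in lymph node.

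**Figure D1:**
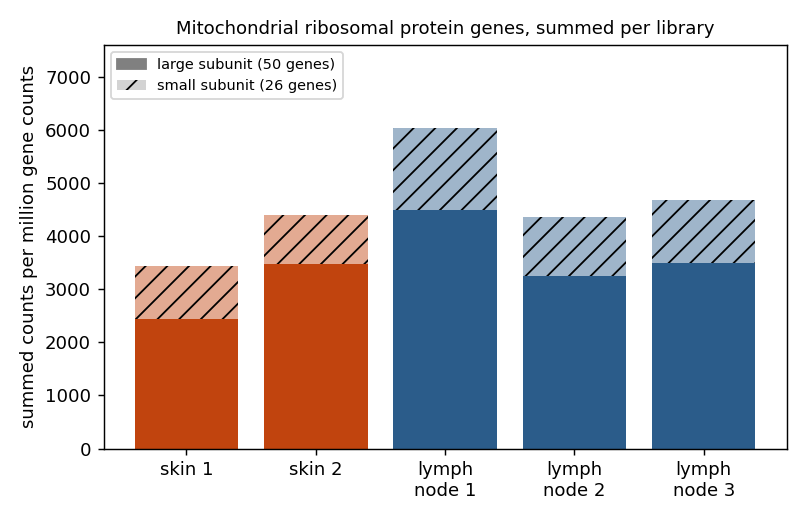
Summed level (CPM without TMM scaling) of the large subunit genes (solid) and small subunit genes (hatched), in 2 skin libraries (orange) and 3 lymph node libraries (blue); Mrps36 is left out. Skin library 1 has the lowest bar (2430 for the large and 1001 for the small subunit) and lymph node library 1 the highest (4491 and 1534), and skin library 2 (3477 and 911) lies beside lymph node libraries 2 and 3.

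None of the 77 genes passed the threshold of the comparison across all genes. By edgeR's quasi-likelihood test with an adjusted p under 0.05, 0 were higher and 0 lower in skin, where 2.4% of the 11437 tested genes were called higher and 5.3% lower. At an unadjusted p under 0.05, 2 were higher and 3 lower, against 10.1% and 19.4% of all tested genes. Positive fold changes were found for 19 genes and negative ones for 58, beside 5064 and 6373 of the 11437 tested genes. The median log2 fold change was -0.49 (quartiles -0.91 and -0.01), beside a median of -0.21 over all tested genes (quartiles -1.87 and 0.83). A log2 fold change within 1 of zero was found for 55 of the 77 genes (71.4%), against 44.0% of all tested genes. Both skin libraries lay below all lymph node libraries for 23 of the 77 (29.9%), where 33.5% of all tested genes did so, and above them for 3 (Mrpl4, Mrps22 and Mrps30), where 16.8% of all did so. By DESeq2, 2 were called higher (Mrpl4 and Mrps30) and 3 lower (Mrpl45, Mrpl32 and Mrps18c), against 10.8% and 17.7% of all tested genes. These are the same 5 genes that had an unadjusted p under 0.05 in edgeR. By limma-voom 0 passed, where 4.95% of all genes were called higher and 14.6% lower after adjustment. At an unadjusted limma-voom p under 0.05, 2 were higher and 4 lower, and the share of all genes at that cut is not given. With other scalings or filters in edgeR no gene of the set was called either, though the stricter filter kept only 54 of the 77. The shares of all genes called higher there were 2.64% with RLE size factors, 2.01% with upper quartile factors, 2.27% with no scaling factor, 0.954% with no low-count filter and 3.7% with a stricter filter. The shares called lower were 5.33%, 5.65%, 5.33%, 1.26% and 2.44% in the same order. With the library number as a replicate block, 0 of the 77 were called, while 0.0962% of all genes were called higher and 0.0874% lower. In that fit 0 of the 77 had an unadjusted p under 0.05, and the share of all genes at that cut is not given.

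The precision of these comparisons was low for many of the genes. The standard error of the log2 fold change ranged from 0.30 to 2.09, with a median of 0.67, and lay under 0.5 for 20 genes. A gene that missed the threshold is therefore not shown to be at the same level in both tissues. Genes with bacterial counterparts (46 genes) had a median log2 fold change of -0.43 and the mitochondria-specific ones (30 genes) of -0.56. The medians of the large and small subunit genes were -0.46 and -0.56.

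**Figure D2:**
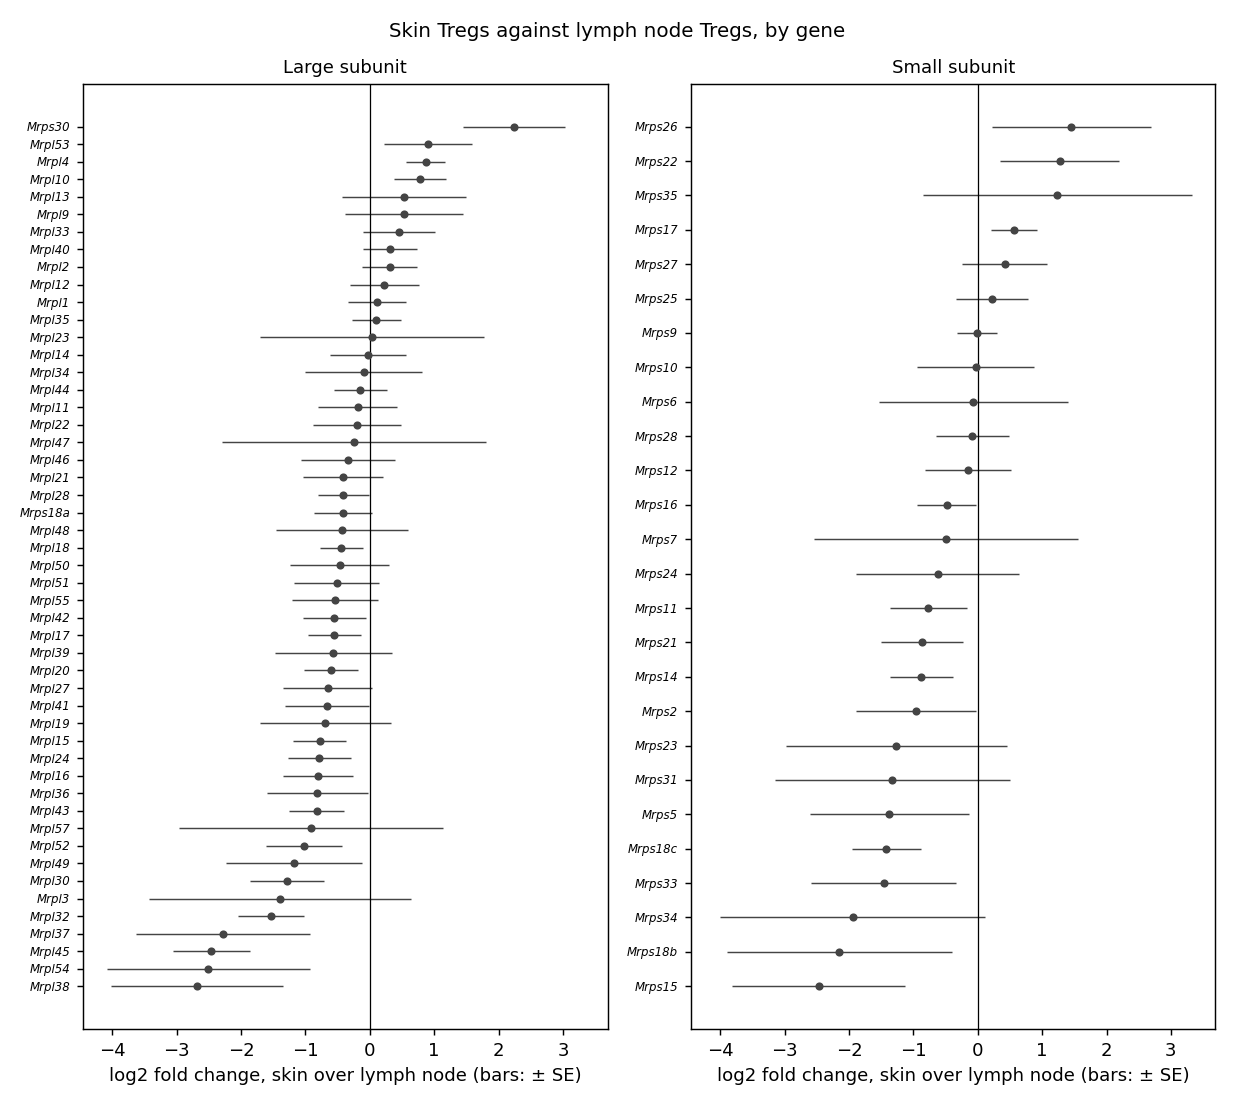
Log2 fold change of each gene, skin over lymph node, with its standard error (bars), for large subunit genes (left) and small subunit genes (right), ordered by size. Most points lie left of 0, with negative fold changes for 58 of 77 genes, beside 6373 of all 11437 tested genes. Mrps36 is in the count of 58 but is not drawn. The widest bars belong to genes such as Mrps35, Mrps34 and Mrps7 that had no reads in 1 skin library.

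Among large subunit genes, Mrpl45 (chr11:97315716-97329920 in GRCm38, the assembly of mm10) came closest to the threshold. Its protein lies beside the tunnel from which the new chain leaves and helps hold the ribosome to the inner membrane. Mrpl45 was at 10.5 and 24.0 CPM in skin and 100, 81.2 and 103 CPM in lymph node. The groups were far apart, with every lymph node value over 3 times the higher skin value (log2 fold change -2.46, SE 0.59, edgeR adjusted p = 0.0589). These values rest on 112 and 240 reads in skin and on 1036 to 1519 reads in lymph node.

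Mrpl32 (chr13:14608184-14613165), a protein with a bacterial counterpart that is matured by the m-AAA protease before it joins the particle, was at 39.7 and 21.1 CPM in skin and 99.2, 80.7 and 83.6 CPM in lymph node. Both skin libraries lay below all lymph node libraries (log2 fold change -1.53, SE 0.52, edgeR adjusted p = 0.117). Mrpl30 (chr1:37890477-37898535), also with a bacterial counterpart, had 31.2 and 89.0 CPM in skin against 186, 106 and 148 CPM in lymph node, with no overlap (log2 fold change -1.29, SE 0.57, adjusted p = 0.215). For Mrpl37 (chr4:107055874-107066868), a mitochondria-specific protein, the values were 33.0 and 1.10 CPM in skin and 72.1, 100 and 76.9 CPM in lymph node. The skin libraries here differed 30.1-fold from each other, and the log2 fold change of -2.28 had an SE of 1.34 (adjusted p = 0.332).

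Large subunit genes with positive fold changes included Mrpl4 (chr9:21002738-21008839), whose bacterial counterpart lines the exit tunnel. Mrpl4 was at 233 and 194 CPM in skin and 136, 91.8 and 123 CPM in lymph node. Both skin libraries lay above all lymph node libraries, and the standard error was the smallest of the set (log2 fold change 0.87, SE 0.30, edgeR adjusted p = 0.124). Mrpl10 (chr11:97041560-97049213) encodes the base of the stalk that recruits translation factors, and had 138 and 286 CPM in skin against 153, 107 and 110 CPM in lymph node. The groups overlapped (log2 fold change 0.78, SE 0.40, adjusted p = 0.270), and 14.1% of its exonic bases are shared with an annotated neighbor. The other stalk proteins were closer to equal. Mrpl12, which forms the mobile part of the stalk, had 43.2 and 105 CPM in skin against 60.3, 72.3 and 57.4 CPM in lymph node (log2 fold change 0.22, SE 0.54, adjusted p = 0.841). Mrpl11, at the stalk base, had 44.8 and 57.6 CPM in skin against 94.0, 36.9 and 44.3 CPM in lymph node (log2 fold change -0.19, SE 0.62, adjusted p = 0.887). In both genes the skin values lay within or on each side of the lymph node values.

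Mrps30, which despite its symbol belongs to the large subunit, was low in lymph node Tregs. It was at 22.0 and 29.3 CPM in skin and 4.0, 5.88 and 6.32 CPM in lymph node, without overlap (log2 fold change 2.24, SE 0.79, edgeR adjusted p = 0.131). Mrpl53, a mitochondria-specific protein, had the largest positive fold change once genes whose average log2 CPM was under 5 were set aside. Mrpl53 was at 32.7 and 83.0 CPM in skin and 43.3, 23.1 and 26.4 CPM in lymph node (log2 fold change 0.90, SE 0.69, adjusted p = 0.460). The groups overlapped, and 88.0% of the exonic bases of Mrpl53 are shared with annotated neighbors, so its reads may come from them in part. Mrpl9 and Mrpl13, both with bacterial counterparts, also had positive log2 fold changes (0.53 each), with the skin libraries on either side of lymph node. Mrpl9 was at 22.7 and 262 CPM in skin and 99.7, 90.2 and 105 CPM in lymph node, and Mrpl13 at 17.3 and 170 CPM in skin and 97.6, 45.9 and 50.4 CPM in lymph node (adjusted p = 0.770 and 0.780).

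Among small subunit genes, Mrps18c (chr5:100798627-100804471) came closest to the threshold. It is the one of 3 paralogs (with Mrps18a and Mrps18b) that takes the bacterial position in the particle. Mrps18c was at 36.7 and 25.8 CPM in skin and 116, 63.2 and 71.7 CPM in lymph node, with no overlap (log2 fold change -1.42, SE 0.54, edgeR adjusted p = 0.152). An annotated neighbor shares 23.2% of its exonic bases. Mrps18b was at 13.8 and 0.0999 CPM in skin and 41.7, 26.2 and 24.4 CPM in lymph node (adjusted p = 0.489), and 30.9% of its 50-base windows also occur in a pseudogene. Mrps18a had a log2 fold change of -0.41 (SE 0.45). Mrps31, a mitochondria-specific protein, had 35.9 and 0.0999 CPM in skin against 62.5, 30.3 and 42.8 CPM in lymph node. Its skin libraries thus lay within and far below the lymph node values (adjusted p = 0.702). Mrps5, with a bacterial counterpart near the entry of the messenger RNA, had 1.59 and 25.8 CPM in skin against 32.0, 30.5 and 43.8 CPM in lymph node (log2 fold change -1.37, SE 1.23, adjusted p = 0.536).

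Other small subunit genes were at similar or higher levels in skin. Mrps9 (chr1:42851233-42905683), of the head of the subunit, was at 106 and 114 CPM in skin and 102, 104 and 128 CPM in lymph node. The values interleaved, and the standard error of 0.31 makes this one of the better measured genes (log2 fold change -0.01, adjusted p = 0.984). Mrps17 (chr5:129715497-129722556), of the body, was at 158 and 224 CPM in skin and 173, 105 and 111 CPM in lymph node (log2 fold change 0.56, SE 0.36, adjusted p = 0.371). Mrps12, a protein of the decoding center, was at 21.7 and 46.2 CPM in skin and 48.5, 31.5 and 33.6 CPM in lymph node (log2 fold change -0.16, SE 0.67, adjusted p = 0.913). For both genes the groups overlapped. Mrps22, a mitochondria-specific protein, was at 23.3 and 25.7 CPM in skin and 9.97, 16.8 and 3.67 CPM in lymph node, without overlap (log2 fold change 1.27, SE 0.93, adjusted p = 0.438).

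**Figure D3:**
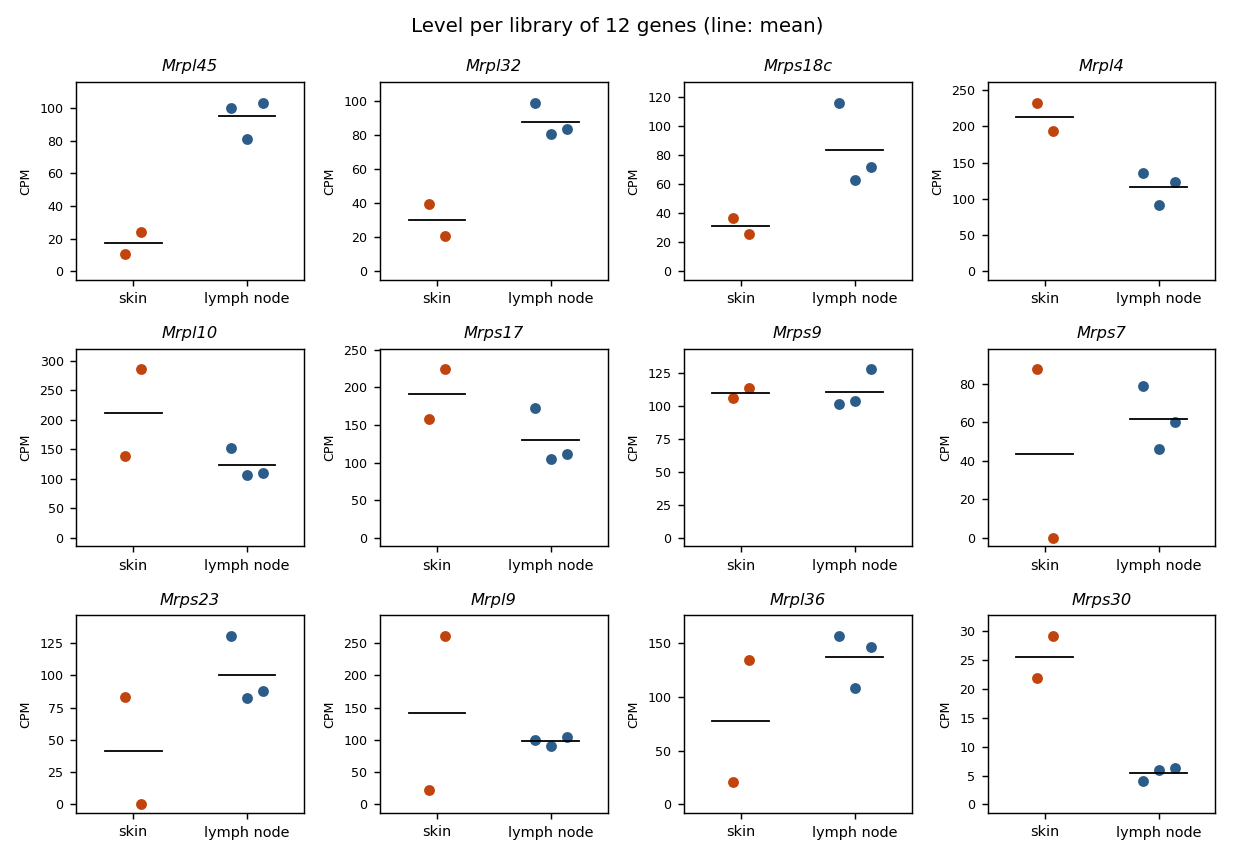
Level in CPM of 12 genes in each skin library (orange) and lymph node library (blue), with the group mean as a line. Mrpl45, Mrpl32 and Mrps18c are lower and Mrpl4 and Mrps30 higher in both skin libraries than in any lymph node library, Mrps9 is alike in all, and Mrps7, Mrps23, Mrpl9 and Mrpl36 differ widely between the skin libraries.

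A large part of the spread lay between the 2 skin libraries. They differed at least 10-fold for 15 of the 77 genes (19.5%), against 26.4% of all tested genes, with values under 3 reads set to 3 reads. The lymph node libraries differed that much for 1 gene of the set (1.30%), against 6.14% of all. Skin library 1 was the higher one for 9 of the 15 (Mrpl3, Mrpl37, Mrpl47, Mrpl57, Mrps6, Mrps7, Mrps18b, Mrps23 and Mrps31). Skin library 2 was the higher one for 6 (Mrpl9, Mrpl19, Mrpl49, Mrps5, Mrps34 and Mrps35). Among the 62 genes with a mean of 20 CPM or more, 16.1% differed at least 10-fold in skin, against 26.7% of all tested genes from 20 CPM to the level of the highest of the set.

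Mrps7, a small subunit protein with a bacterial counterpart, showed the widest such gap. Mrps7 had 87.6 CPM (936 reads) in skin library 1 and 0 in skin library 2, where 3 reads would be 0.300 CPM, against 78.7, 45.9 and 60.1 CPM in lymph node. Mrps23, a mitochondria-specific protein, had 83.1 and 0.300 CPM in skin against 131, 82.5 and 87.6 CPM in lymph node. In both genes skin library 1 was close to lymph node while skin library 2 was near the floor. The opposite order was seen for Mrps35, with 0 and 40.7 CPM in skin against 10.5, 5.96 and 9.44 CPM in lymph node, and for Mrpl49, with 5.33 and 73.1 CPM in skin against 105, 82.5 and 78.3 CPM in lymph node. Over the log2 levels of the 77 genes, Pearson's r between the skin libraries was 0.349, and between pairs of lymph node libraries 0.887 to 0.959. The points are genes, not independent replicates, and for all 11437 tested genes the values were 0.612 in skin and 0.902 to 0.910 in lymph node. Such an r depends on the range of levels in each set, so 0.349 and 0.612 are not directly comparable. By fold, the skin libraries differed by a median of 2.13 in the set and 2.20 over all tested genes.

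**Figure D4:**
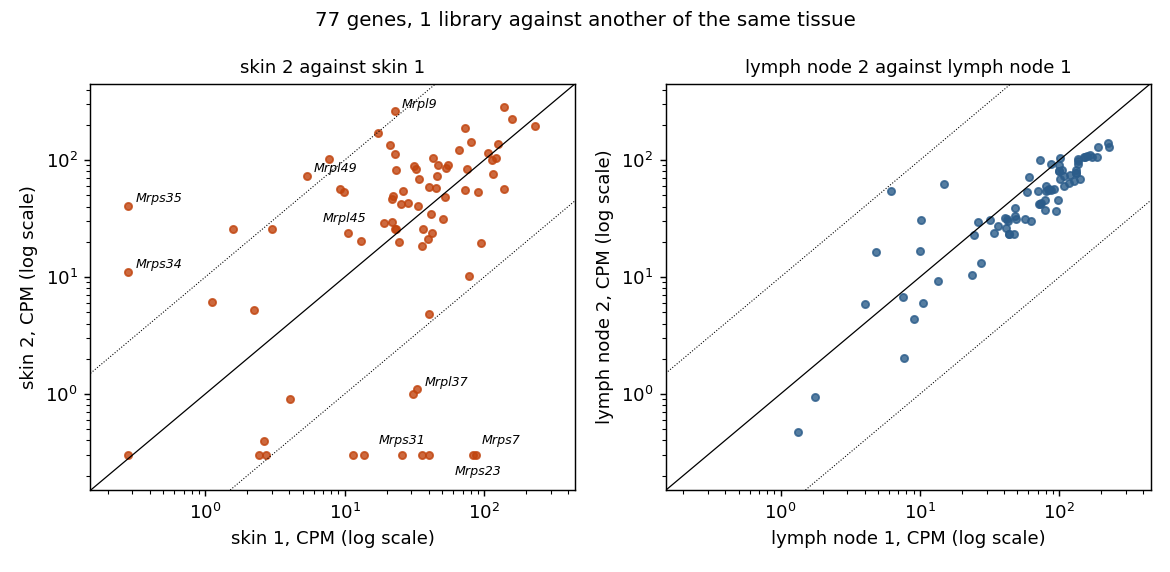
CPM of the 77 genes in skin library 2 against skin library 1 (left) and in lymph node library 2 against lymph node library 1 (right), on log axes with values under 3 reads drawn at 3 reads; the solid line marks equality and the dotted lines a 10-fold difference. Skin points scatter to both sides of the dotted lines (15 genes at 10-fold or more), and the lymph node points of this pair all lie between the dotted lines.

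With each skin library set alone against the 3 lymph node libraries, more genes were called. In such a fit the lone skin library is assumed to vary as the lymph node libraries do. With skin library 2 alone, 7 of the 77 genes were called higher and 18 lower, against 16.9% and 31.8% of the genes tested there. With skin library 1 alone, 2 were called higher and 19 lower, against 14.4% and 24.8%. Both fits use the same lymph node libraries, so their calls are not independent of each other. With skin library 1 alone and skin library 2 alone, the log2 fold change was -3.18 and -1.99 for Mrpl45, -1.15 and -2.06 for Mrpl32, -1.34 and -6.23 for Mrpl37, and 2.02 and 2.43 for Mrps30. The signs were opposite for Mrpl9 (-2.12 and 1.41), Mrpl13 (-1.91 and 1.39) and Mrps35 (-9.83 and 2.23). Mrps35 had no read in skin library 1, so the size of its negative value is not well defined.

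Set against exon length, expression within the set spanned a wide range. The mean level over all 5 libraries per kilobase of exon ranged from 0.274 CPM (Mrpl23) to 114 CPM (Mrpl18), with a median of 22.5. By this mean over both tissues the highest 6 were Mrpl18, Mrpl36, Mrpl28, Mrpl10, Mrpl55 and Mrpl44, all of the large subunit. The order differed between the tissues: in skin Mrpl4 (81.6 CPM per kilobase) and Mrpl53 (73.2) stood above Mrpl36, and in lymph node the small subunit gene Mrps18c (77.8) stood above Mrpl55. Mrpl18 stood at 93.9 CPM per kilobase in skin and 128 in lymph node, Mrpl36 at 67.2 and 118, Mrpl28 at 81.2 and 108, Mrpl10 at 124 and 72.3, Mrpl55 at 51.0 and 74.0, and Mrpl44 at 58.0 and 64.3. With the longest transcript in place of the exon union, 4 of these 6 remained among the highest. In level and not per length, Mrpl18 was at 126 and 136 CPM in skin and 228, 129 and 178 CPM in lymph node, with overlap (log2 fold change -0.44, SE 0.34, edgeR adjusted p = 0.460). Mrpl36, a short protein with a bacterial counterpart, was at 21.2 and 135 CPM in skin and 157, 109 and 146 CPM in lymph node, with overlap through skin library 2 (log2 fold change -0.82, SE 0.78, adjusted p = 0.564). Mrpl28 and Mrpl55, with bacterial counterparts, and Mrpl44, which has the fold of a double-stranded RNA nuclease, had log2 fold changes of -0.41 (adjusted p = 0.560), -0.54 (0.668) and -0.15 (0.863) in that order.

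Reads of some genes cannot be placed uniquely. Non-unique alignments were 64.5 to 72.0% of the counts in each library and are assigned to no gene. Of the 50-base windows of its longest transcript, 36.2% for Mrps36 and 33.4% for Mrpl22 occur exactly in annotated pseudogenes elsewhere, and for Mrpl27 35.4% occur in other genes. Over 10% of the windows were shared in this way for 10 of the 77 genes. Mrpl23 shared 4.86% of its windows with pseudogenes, 12 in number, and the genome itself was not searched. Mrps36 had 2 and 2 reads in skin and 19, 6 and 12 reads in lymph node, and Mrpl23 29 and 0 reads in skin and 25, 12 and 19 in lymph node. Both rest on too few reads for a comparison.

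Several of the genes overlap a neighbor on the other strand, and the strand setting of the counting is not given. Exonic bases were shared with another gene for 32 of the 77, at 10% or more of the exon length for 18. Mrps11 (chr7:78783119-78792989) and Mrpl46 (chr7:78775236-78783531) are divergent neighbors, and 12.2% of the exonic bases of Mrpl46 lie in Mrps11. Mrps11 was at 41.9 and 23.9 CPM in skin and 73.7, 42.8 and 51.2 CPM in lymph node. Mrpl46 was at 22.7 and 113 CPM in skin and 100, 69.1 and 88.3 CPM in lymph node. The pair thus took opposite orders in the 2 skin libraries. Mrpl43 shares 33.4% of its exonic bases with the gene of the mitochondrial DNA helicase Twinkle, listed as Peo1. Mrpl43 was at 40.1 and 58.4 CPM in skin and 86.9, 92.0 and 83.3 CPM in lymph node, with no overlap (log2 fold change -0.83, SE 0.42, edgeR adjusted p = 0.266).

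Of the 6 ribosomal protein genes with other names, 0 were called. Dap3, a GTP-binding protein of the small subunit, was at 33.4 and 126 CPM in skin and 265, 204 and 242 CPM in lymph node (log2 fold change -1.57, SE 0.60, edgeR adjusted p = 0.157). Ptcd3, an RNA-binding small subunit protein, was at 52.8 and 47.0 CPM in skin and 128, 145 and 164 CPM in lymph node (log2 fold change -1.55, SE 0.34, adjusted p = 0.0524). Both genes were lower in both skin libraries than in any lymph node library, without passing the threshold. Of the 6, 4 had an unadjusted p under 0.05, all with negative fold changes, against 19.4% of all tested genes.

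Genes that build, feed or regulate the mitochondrial ribosome contained calls in both directions. Over the 6 companion lists (ribosomal proteins with other names, translation factors, assembly factors, mitochondrial aminoacyl-tRNA synthetases, mitochondrial DNA expression and regulators of mitochondrial biogenesis), 96 genes were tested, 2 were higher and 12 lower, and 82 did not pass. These shares stand beside 2.4% and 5.3% of all tested genes. All 12 lower genes had at most 2 reads over both skin libraries, so they passed the low-count filter through lymph node alone. The share of all tested genes with so few skin reads is not given, so the 12 are not shown to be particular to these lists. The calls rest on all 3 lymph node libraries: without any 1 of them edgeR called no gene of these lists, and none in the whole table, with 21 to 22 lower and 4 to 5 higher in the lists at an unadjusted p under 0.05.

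In the list of assembly factors, the longest of the 6, 1 of 30 genes was higher and 5 lower (median log2 fold change -0.56). Mettl17, a factor of small subunit assembly, had 1 read in each skin library (0.0936 and 0.0999 CPM) against 49.2, 65.4 and 85.9 CPM in lymph node. The lymph node to skin ratio was 695 (95% exact counting interval 192 to 5739, edgeR adjusted p = 0.0253). The methyltransferases that act on the ribose of the large ribosomal RNA were without reads in both skin libraries. Mrm1 was at 20.6, 18.97 and 24.6 CPM in lymph node, at least 149-fold lower in skin when 3 reads over both skin libraries are taken as the floor (adjusted p = 0.0452). Rnmtl1, now called Mrm3, was at 23.2, 21.8 and 14.5 CPM in lymph node, at least 136-fold lower in skin (adjusted p = 0.0456). Ftsj2, now called Mrm2, was at 13.0, 18.7 and 7.07 CPM in lymph node, at least 87.3-fold lower in skin (adjusted p = 0.0488). All 3 enzymes known to methylate this RNA on the ribose were thus without a read in skin. Low values in skin were not confined to these lists. Of 6660 genes whose lymph node average reached 20 CPM, 8.80% and 16.1% fell under 1 CPM in skin libraries 1 and 2. The share of all tested genes without reads in both skin libraries, at like lymph node levels, is not given. Fold limits here and below cover counting error only.

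Tfb1m, which methylates the small ribosomal RNA, also had no read in skin and 20.2, 13.8 and 16.5 CPM in lymph node, at least 117-fold lower (adjusted p = 0.0460). Afg3l2, the catalytic subunit of the m-AAA protease that matures the Mrpl32 protein, was the assembly gene that rose. It was at 106 and 217 CPM in skin and 30.1, 24.0 and 25.1 CPM in lymph node (log2 fold change 2.62, SE 0.47, edgeR adjusted p = 0.0460).

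Among translation factors 1 of 14 was called. Taco1, an activator of translation of a cytochrome c oxidase subunit, had no read in skin and 22.5, 17.3 and 17.1 CPM in lymph node, at least 131-fold lower (edgeR adjusted p = 0.0452). Tufm, the mitochondrial elongation factor Tu, was at 17.1 and 17.1 CPM in skin and 17.6, 20.5 and 15.8 CPM in lymph node (log2 fold change -0.07, SE 0.73, adjusted p = 0.964). Of the 17 aminoacyl-tRNA synthetases Wars2 was called, with 1 read over both skin libraries against 26.7, 20.5 and 20.6 CPM in lymph node, a ratio of 469 (95% exact counting interval 84.0 to 18542, adjusted p = 0.0463). The median log2 fold change was -0.64 for the translation factors and -1.42 for the synthetases.

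In the list of mitochondrial DNA expression 1 of 20 genes was higher and 4 lower (median log2 fold change -0.80). Tefm, the elongation factor of the mitochondrial RNA polymerase, had no read in skin and 31.4, 21.1 and 28.1 CPM in lymph node, at least 187-fold lower (edgeR adjusted p = 0.0440). Mgme1, a nuclease of mitochondrial DNA maintenance, also had no read in skin and 15.2, 13.4 and 26.9 CPM in lymph node, at least 130-fold lower (adjusted p = 0.0463). Peo1 had 1 read over both skin libraries and 17.6, 18.0 and 15.7 CPM in lymph node, a ratio of 353 (95% exact counting interval 63.2 to 13975, adjusted p = 0.0482). Elac2, which trims mitochondrial transfer RNAs, was the remaining call that was lower (adjusted p = 0.0496). Polg2, the accessory subunit of the mitochondrial DNA polymerase, rose to 77.4 and 127 CPM in skin, against 12.9, 15.9 and 11.5 CPM in lymph node (log2 fold change 2.93, SE 0.55, adjusted p = 0.0476). Tfam, which packages mitochondrial DNA and starts its transcription, was at 41.8 and 73.2 CPM in skin and 162, 113 and 95.1 CPM in lymph node, without overlap (log2 fold change -1.10, SE 0.46, adjusted p = 0.190).

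Of the 9 tested regulators of mitochondrial biogenesis, Ppargc1b, a coactivator, was called, with no read in skin and 7.94, 8.86 and 17.9 CPM in lymph node, at least 81.1-fold lower (edgeR adjusted p = 0.0489). Nrf1, whose motif is marked in the promoters above, was at 223 and 284 CPM in skin and 110, 145 and 97.7 CPM in lymph node, without overlap (log2 fold change 1.11, SE 0.30, adjusted p = 0.0719).

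Set beside related gene sets, the median log2 fold change of -0.49 lay near that of nuclear genes for respiratory chain subunits and above that of cytosolic ribosomal proteins. Of 76 tested respiratory chain subunit genes, 0 were higher and 1 lower, with a median of -0.39. Of 76 tested genes for cytosolic ribosomal proteins, 0 were higher and 4 lower, with a median of -1.42, and both skin libraries lay below all lymph node libraries for 73.7% of them, against 33.5% of all tested genes. Cytosolic ribosomal protein genes have many processed pseudogenes, so their counts are affected by the loss of reads with several alignments. The differences between these sets were not tested.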

How the data were processed

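Tools named in the submitters' processing notes are HTSeq (0.6.1), SAMtools (0.1.19.0), Bowtie2 (2.1.0.0), TopHat2 (2.0.12) and CASAVA (1.8.2), with build mm10. Neither options nor strandedness are stated. The table deposited by the authors holds raw counts per gene symbol, 1 column per library, under a header shifted by 1 cell. Its 5 HTSeq summary lines were left out.

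Genes were kept by filterByExpr (edgeR 4.0.16 in R 4.3.3, minimum count 10), which left 11437, scaled by TMM and compared by the quasi-likelihood F test over all 5 libraries, p-values adjusted by Benjamini-Hochberg across all of these genes and a threshold of 0.05. The SE of a fold change is its size over the square root of F. With 2 against 3 libraries, significance rests on spread shared across genes. Lengths, neighbors and positions come from GENCODE M21. Counting intervals and floors cover counting error only. The functions were run on simulated data, where a pass rule was applied to edgeR only, at a dispersion lower than the common 0.843 of these data. Recovery at the dispersion of these data is not given. Alternatives were other scalings and filters, DESeq2 1.42.0, limma-voom 3.58.1, a replicate block and leaving out each library.

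Members and lists were chosen with earlier results of these data known. Named are genes past the threshold, the 6 largest positive and negative fold changes (average log2 CPM at least 5), genes without reads in 1 tissue and at 20 CPM or more in the other (no gene of the 77), the 6 highest per exon length, up to 4 called genes per list and preset genes (Mrpl12, Mrps12, Mrpl11, Mrps5, Dap3, Tufm, Tfam). Mrps30, Mrps22, Mrps7, Mrps23, Mrps35, Mrpl49, Mrps9, Mrps18a, Mrps18b, Mrps11, Mrpl46, Mrpl43, Mrpl22, Mrpl23, Mrpl27, Mrps36, Ptcd3, Elac2, Tfb1m, Ftsj2, Nrf1 and further genes in counts were chosen after their values were seen.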

Additional observations from a re-analysis of the deposited data

How the results depend on the processing

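The median log2 fold change of the 77 genes was negative under all 13 alternatives (-0.74 to -0.28), and the ratio of summed levels stayed between 0.683 and 0.873. The distance of that median from the median of all tested genes changed sign, however: -0.28 as reported, 0.18 with limma-voom, 0.12 with the replicate block, 0.58 without skin library 1 and 0.03 without skin library 2. The median of all genes itself moved by -0.64 with limma-voom and by -0.64 with the replicate block. It moved by -0.84 without skin library 1 and by -0.37 without skin library 2. Under the other alternatives it moved by -0.24 (no low-count filter) to 0.23 (stricter filter), with -0.15 for upper quartile scaling. The count of called genes among the 77 stayed at 0 except with DESeq2 (2 higher, 3 lower) and when a library was left out (0 to 7 higher, 0 to 19 lower; calls arose without a skin library). Over the companion lists, the 2 higher and 12 lower calls became 0 and 2 without the low-count filter, 2 and 1 with the stricter filter, 6 and 24 with DESeq2, 4 and 20 with limma-voom, and 0 to 10 higher and 0 to 50 lower when a library was left out. The stricter filter kept 45 of the 96 tested genes of these lists and 54 of the 77, so genes it removed had no test there. With the replicate block (library number 1, 2 or 3) 0 higher and 0 lower remained in the companion lists and 0 among the 77. Same-numbered libraries did not deviate together (r = -0.0252 and -0.0236), so the numbers are not shown to pair them. Deviations of the skin libraries from their mean mirror each other, so these r values are not independent checks. Lymph node library 3 has no skin library of its number. The stricter NRF1 letters GCGCATGCG were in 9.46% of the promoters, against 3.86% for tested genes. Of the 77 genes, 45 kept their sign under every alternative in which they were tested. Leaving out a library moved the log2 fold change of Mrpl9 between -2.12 and 1.41 and that of Mrpl13 between -1.91 and 1.39, both lowest without skin library 2. Causes of these changes were not tested. Depth limits the genes near 3 reads per library (0.204 to 0.300 CPM).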
